A study of Homo sapiens with 2 samples.

Results

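The EGF receptor (ERBB) family, the ligands that bind it and the inhibitor ERRFI1 were followed in TPC-1 cells that received an siRNA against XPR1 or a control siRNA. The 10 genes were taken by name from the 58884 Ensembl genes of the deposited table. They are the receptors EGFR, ERBB2 and ERBB3, the ligands HBEGF, EREG, AREG, TGFA, BTC and EPGN, and ERRFI1, and all 10 were found once each. TPC-1 is an established human papillary thyroid carcinoma line in which CCDC6 is fused to the receptor tyrosine kinase RET, and both libraries come from it. There is 1 library of cells transfected with the XPR1 siRNA and 1 of cells transfected with the control siRNA, and XPR1 is the phosphate exporter of the plasma membrane. Neither the siRNA sequences nor the time after transfection are stated in the labels. Levels are in TPM, a length-corrected share of all transcripts of a library, so they can be set against each other between genes. Such comparisons between genes rest on the gene lengths that the authors used, which are not stated. With 1 library per group there is no replicate, no test of the conditions and no p-value, and higher or lower describes these 2 libraries.

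ERBB receptors are single-pass tyrosine kinases that pair when a ligand binds and then drive the RAS to ERK and the PI3K cascades. Their ligands are made as membrane-bound precursors, which proteases such as ADAM17 release from the cell surface. EGFR binds EGF, TGF-alpha, amphiregulin, HB-EGF, betacellulin, epiregulin and epigen. ERBB2 has no known soluble ligand and serves as the preferred partner of the others, and ERBB3, whose kinase is nearly inactive, binds neuregulins. ERRFI1, also called MIG6, is induced by EGFR signalling, binds the active kinase and shuts it off. Several of the ligand genes can themselves be switched on by ERK in epithelial cells, so that a cell can feed its own receptor.

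XPR1 stood at 5.31 TPM in the XPR1-siRNA library and 39.2 TPM in the control-siRNA library, which is 13.5% of control (95% counting interval 11.6% to 15.7%). Counted reads, recovered from TPM and gene length, came to about 15150000 with XPR1 siRNA and 15780000 with control siRNA. Intervals below are 95% Clopper-Pearson intervals of the TPM ratio on those reads. They cover counting error only and are approximate, since the reads of only 3 members came out whole in both libraries. Among thyroid markers, PAX8 (408.6 and 588.1 TPM with XPR1 and control siRNA) and FOXE1 were expressed, TG stood near 1 TPM in both libraries, and NKX2-1, TSHR and SLC5A5 were at 0. The epithelial keratins KRT8 and KRT18 were expressed, whereas EPCAM was at 0 and CDH1 had 1 read with XPR1 siRNA and 3 with control siRNA. The 6 leukocyte markers summed to 0.826 TPM with XPR1 siRNA and 0.457 TPM with control siRNA, and the 4 endothelial markers to 1.08 TPM with XPR1 siRNA and 2.36 TPM with control siRNA. The 6 fibroblast markers summed to 7.85 TPM with XPR1 siRNA and 1.52 TPM with control siRNA, mostly COL1A1, and DCN was at 0 in both. In bulk RNA, fewer cells of a type and less RNA per cell cannot be told apart, and the part of any such cells in the values below was not tested.

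Over the 10 genes, 5 were at least 2-fold lower with XPR1 siRNA: the ligands HBEGF, EREG and EPGN, the receptor EGFR and the inhibitor ERRFI1. Only ERBB2 was at least 2-fold higher. AREG, TGFA and BTC lay within 2-fold, and ERBB3, with a mean below 1 TPM, was left out of the counts. These calls use the difference of log2(TPM + 1) and genes whose mean over both libraries reached 1 TPM. By that rule 8.57% of all 16319 such genes were lower and 10.4% higher, and among the 11698 protein-coding ones 4.57% were lower and 8.75% higher. All 6 called members also had a counting interval that excluded 1. Of all expressed genes, 5.15% were at least 2-fold lower with such an interval and 7.38% at least 2-fold higher, and the interval by itself excluded 1 for 56.9%. The median difference of the 9 expressed members was -1.08, beside 0.05 for all expressed genes and 0.10 for the protein-coding ones. The members were chosen with earlier results of these libraries known, so these contrasts are descriptions and not independent evidence.

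**Figure D1:**
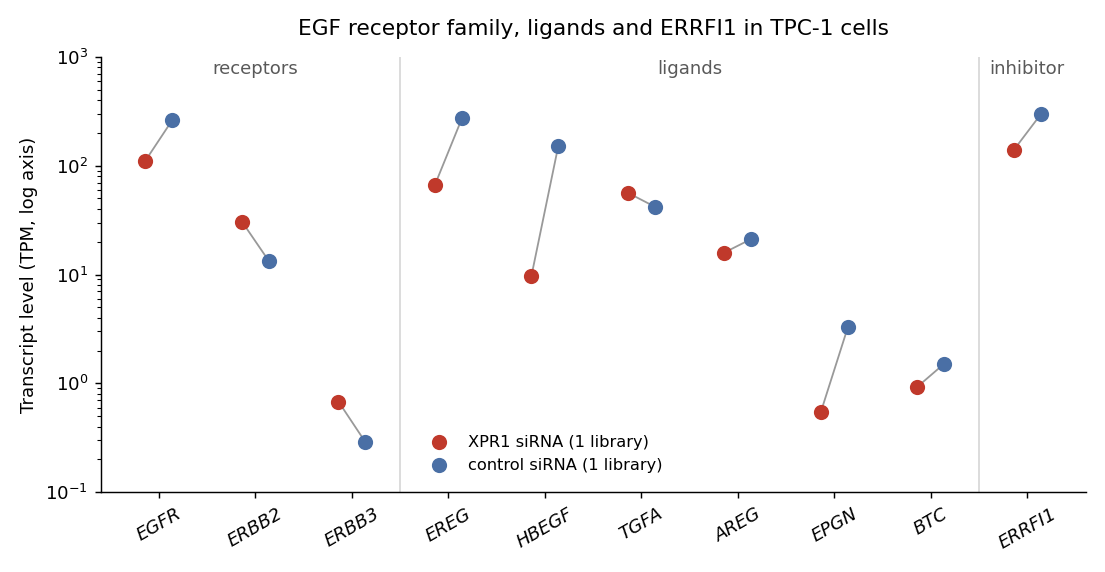
Transcript level of each gene in TPM on a log axis, with the XPR1-siRNA library in red and the control-siRNA library in blue, 1 library each. EGFR, EREG and ERRFI1 were the most abundant, between 66.5 and 295.7 TPM, and the drop of HBEGF to 9.64 TPM, against 152.9 TPM with control siRNA, is the steepest line.

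EGFR was the dominant receptor transcript in both libraries. EGFR (ENSG00000146648, chr7:55019021-55211628, plus strand, GRCh38) was at 111.3 TPM with XPR1 siRNA and 263.6 TPM with control siRNA. It was 2.37-fold lower with XPR1 siRNA, with a counting interval of 2.30 to 2.44. Among the 11698 expressed protein-coding genes its level ranked 1177 with XPR1 siRNA and 411 with control siRNA. EGFR-AS1, an antisense RNA that shares 186 of the 12521 exonic bases of EGFR, was at 0.439 TPM with XPR1 siRNA and 1.77 TPM with control siRNA. The library kit does not mark strand, so reads from those shared bases cannot be told apart.

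ERBB2 moved the other way. ERBB2 (ENSG00000141736, chr17:39687914-39730426, plus strand) was at 30.6 TPM with XPR1 siRNA and 13.3 TPM with control siRNA, a ratio of 2.31 (2.09 to 2.55). Its reads, 1283 with XPR1 siRNA and 578 with control siRNA, were whole numbers in both libraries. On the opposite strand PGAP3 shares 194 and MIEN1 571 of the 10321 exonic bases of ERBB2. PGAP3 was at 16.3 TPM with XPR1 siRNA and 8.25 TPM with control siRNA. MIEN1 was at 29.3 TPM with XPR1 siRNA and 24.3 TPM with control siRNA. Both were thus higher with XPR1 siRNA, as ERBB2 was. How far shared reads enter the ERBB2 value was not tested.

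ERBB3 (ENSG00000065361, chr12:56076799-56103505) was barely expressed, at 0.681 TPM with XPR1 siRNA and 0.288 TPM with control siRNA. These values rest on 25 reads with XPR1 siRNA and 11 with control siRNA, and the ratio of 2.36 has an interval of 1.12 to 5.32. The remaining receptor, ERBB4, which binds neuregulins and some of the EGF-like ligands, had no read in either library. EGFR made up 78.1% of the summed TPM of the 3 listed receptors with XPR1 siRNA and 95.1% with control siRNA, and ERBB2 21.5% with XPR1 siRNA and 4.79% with control siRNA. The TPM of EGFR was thus 3.64 times that of ERBB2 with XPR1 siRNA and 19.9 times with control siRNA. The sum of the 3 receptors was 142.6 TPM with XPR1 siRNA and 277.2 TPM with control siRNA, 1.94-fold lower (1.89 to 2.00, from the Poisson error of the reads).

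**Figure D2:**
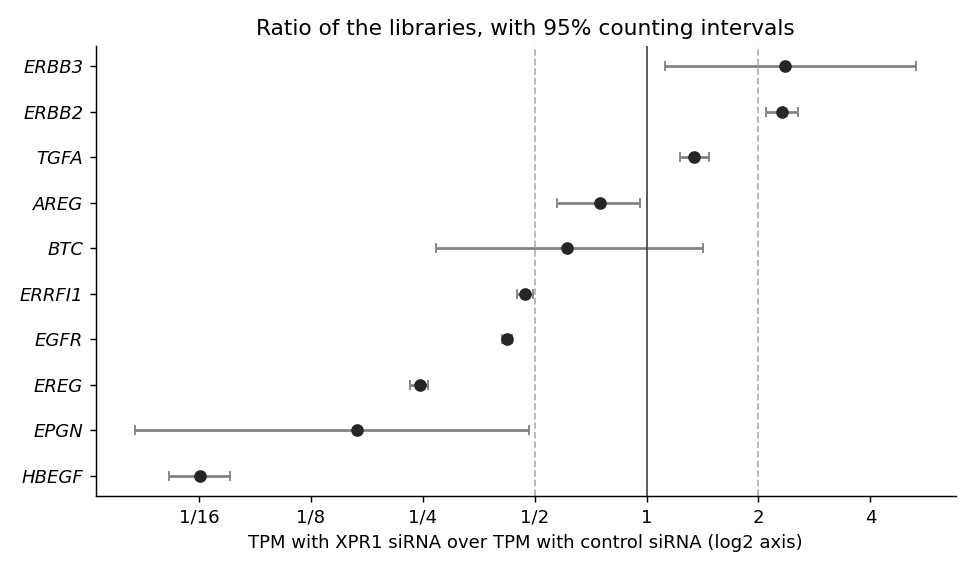
TPM with XPR1 siRNA over TPM with control siRNA for each gene on a log2 axis, with 95% Clopper-Pearson intervals that cover counting error only; dashed lines mark 2-fold. HBEGF lies farthest to the left at 0.0630, ERBB2 and ERBB3 lie beyond 2, and the interval of BTC is the only one that includes 1.

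Among the ligands, HBEGF, the heparin-binding ligand of EGFR and ERBB4 whose precursor is also the diphtheria toxin receptor, was lower by the most. HBEGF (ENSG00000113070, chr5:140332843-140346631, minus strand) was at 9.64 TPM with XPR1 siRNA and 152.9 TPM with control siRNA. It was 15.9-fold lower with XPR1 siRNA (13.2 to 19.3), from about 118 reads with XPR1 siRNA and 1947 with control siRNA. By its log2(TPM + 1) difference of -3.85 it ranked 16 from the lowest of the 11698 expressed protein-coding genes.

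EREG encodes epiregulin, a ligand of EGFR and ERBB4 and the most abundant ligand transcript in both libraries. EREG (ENSG00000124882, chr4:74365143-74388751, plus strand) was at 66.5 TPM with XPR1 siRNA and 271.2 TPM with control siRNA, 4.08-fold lower (3.86 to 4.32). It ranked 119 from the lowest. EPGN, which encodes the low-affinity ligand epigen, was at 0.543 TPM with XPR1 siRNA and 3.27 TPM with control siRNA. It was 6.01-fold lower, but with only 4 reads in the XPR1-siRNA and 25 in the control-siRNA library the interval runs from 2.08 to 23.8.

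The other ligands differed less. AREG (ENSG00000109321, chr4:74445134-74455009, plus strand), which encodes amphiregulin, was at 15.9 TPM with XPR1 siRNA and 21.2 TPM with control siRNA, 1.33-fold lower (1.04 to 1.74). BTC, which encodes betacellulin, was at 0.928 TPM with XPR1 siRNA and 1.52 TPM with control siRNA. Its counting interval, from 11 reads with XPR1 siRNA and 18 with control siRNA, runs from 0.271 to 1.42 times control, so no difference was detectable at this depth. TGFA (ENSG00000163235, chr2:70447280-70554193, minus strand), which encodes TGF-alpha, was the only ligand of the 6 with a higher value, at 56.3 TPM with XPR1 siRNA and 41.9 TPM with control siRNA. Its ratio was 1.34 (1.23 to 1.47).

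The make-up of the ligand transcripts therefore differed between the libraries. The 6 ligands summed to 149.8 TPM with XPR1 siRNA and 492.0 TPM with control siRNA, 3.28-fold lower (3.14 to 3.44, from the Poisson error of the reads). HBEGF was 6.43% of that sum with XPR1 siRNA and 31.1% with control siRNA. TGFA was 37.6% with XPR1 siRNA and 8.52% with control siRNA. EREG was 44.4% with XPR1 siRNA and 55.1% with control siRNA, and AREG was 10.6% with XPR1 siRNA and 4.31% with control siRNA. In order of level, the ligands ran EREG, TGFA, AREG, HBEGF, BTC and EPGN with XPR1 siRNA, and EREG, HBEGF, TGFA, AREG, EPGN and BTC with control siRNA. TGFA transcript was 5.84 times as abundant as HBEGF transcript with XPR1 siRNA and 0.274 times with control siRNA. BTC and EPGN, at the bottom of both orders, had between 4 and 25 reads per library, too few to order them firmly.

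**Figure D3:**
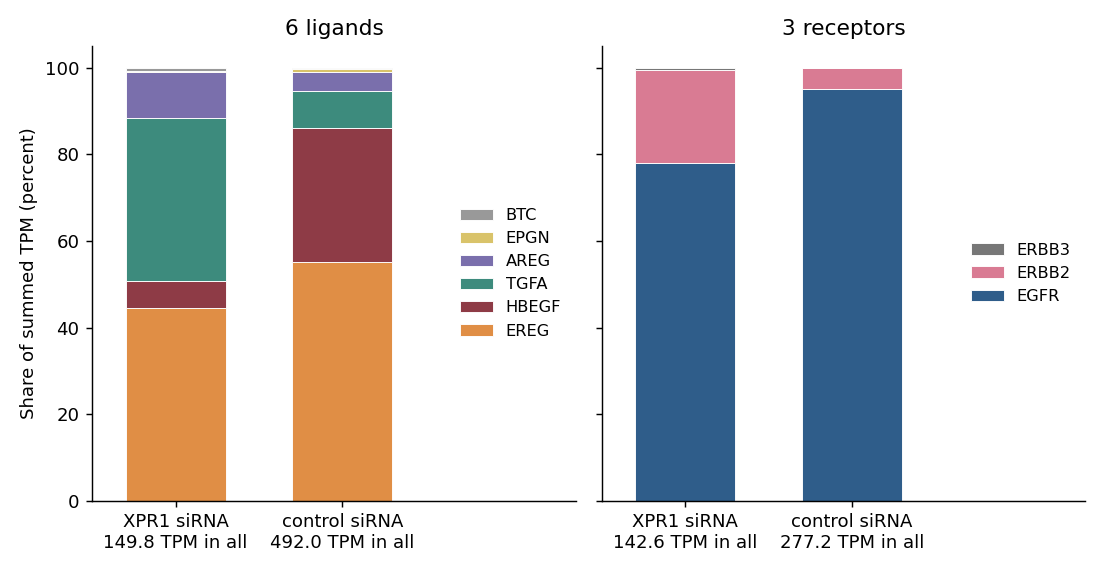
Share of each gene in the summed TPM of the 6 ligands (left) and the 3 receptors (right), with the XPR1-siRNA library left of the control-siRNA library and the sums under the bars. HBEGF narrows to 6.43%, against 31.1% with control siRNA, while TGFA widens to 37.6%, against 8.52%, and ERBB2 to 21.5%, against 4.79%.

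EPGN, EREG, AREG and BTC sit side by side on the long arm of chromosome 4, and their values did not move as a block. The 4 genes span 486.2 kb (chr4:74308473-74794686). EPGN and EREG are 49.8 kb apart, EREG and AREG 56.4 kb, and AREG and BTC 289.8 kb. EREG and its neighbour AREG differed in size, with counting intervals of 3.86 to 4.32 and 1.04 to 1.74 for how much lower they were, which do not overlap. The ratio of EREG to AREG transcript was 4.18 with XPR1 siRNA and 12.8 with control siRNA.

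Within 500 kb on either side of these ligands lie 10 other protein-coding genes, most of them chemokine genes. Only 4 of them had a mean of at least 1 TPM, and all 4 were at least 2-fold lower with XPR1 siRNA. Over the whole table, 8.57% of expressed genes and 4.57% of expressed protein-coding genes were lower by as much. All but MTHFD2L are chemokine genes, so the 4 do not count as independent neighbours. CXCL3 was at 17.4 TPM with XPR1 siRNA and 229.3 TPM with control siRNA, 13.2-fold lower. CXCL2 was at 260.7 TPM with XPR1 siRNA and 1929 TPM with control siRNA, 7.40-fold lower. CXCL1, like CXCL2 and CXCL3 a neutrophil chemokine, was at 2858 TPM with XPR1 siRNA and 7185 TPM with control siRNA, 2.51-fold lower. MTHFD2L, a mitochondrial folate enzyme gene that ends just before EPGN, was at 2.76 TPM with XPR1 siRNA and 14.3 TPM with control siRNA, 5.20-fold lower. CXCL5 (0.910 TPM with XPR1 siRNA and 0.876 TPM with control siRNA) and PARM1 (0.489 TPM with XPR1 siRNA and 0.141 TPM with control siRNA) were below the floor of 1 TPM, and CXCL6, PF4V1, PF4 and PPBP had no read. AREG and BTC were the only expressed protein-coding genes of the stretch within 2-fold. An antisense RNA between AREG and BTC, AC239584.1, had 1 read with XPR1 siRNA and 11 reads with control siRNA.

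**Figure D4:**
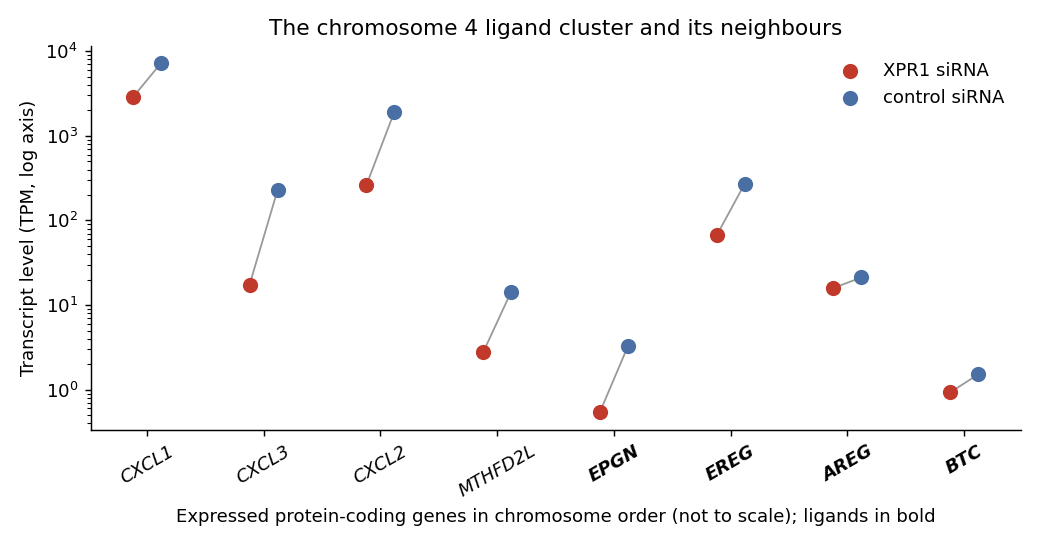
Levels in TPM on a log axis of the 8 expressed protein-coding genes of the chromosome 4 stretch, in chromosome order and not to scale, with the XPR1-siRNA library in red and the control-siRNA library in blue. CXCL1, CXCL3, CXCL2, MTHFD2L, EPGN and EREG stand at least 2-fold lower with XPR1 siRNA on the log2(TPM + 1) scale, AREG and BTC within 2-fold.

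Promoter windows of RefSeq (GRCh38.p14), from 250 bases before to 50 bases after the start, were found for 9 of the 10 genes, and not for ERBB3. The stretches upstream of HBEGF, which differed most, and of the neighbours EPGN, EREG and AREG, which differed unequally, are shown up to the first annotated exon base, 5′ to 3′ on the strand of the gene. They are chr5:140346632-140346853 (minus strand), chr4:74308220-74308469, chr4:74364895-74365142 and chr4:74444886-74445133 (plus strand). Capitals mark matches on either strand to the letters searched. These were TATAAA for the TATA box, GGGCGG for SP1 sites, TGACGTCA for the cAMP response element (CRE), TGACTCA for AP-1 sites and CCGGAAG for ETS sites.
HBEGF: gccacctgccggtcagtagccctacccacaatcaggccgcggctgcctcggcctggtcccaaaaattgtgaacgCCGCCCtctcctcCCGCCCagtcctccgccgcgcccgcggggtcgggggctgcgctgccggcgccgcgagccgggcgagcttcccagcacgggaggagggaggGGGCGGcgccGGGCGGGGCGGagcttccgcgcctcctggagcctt
EPGN: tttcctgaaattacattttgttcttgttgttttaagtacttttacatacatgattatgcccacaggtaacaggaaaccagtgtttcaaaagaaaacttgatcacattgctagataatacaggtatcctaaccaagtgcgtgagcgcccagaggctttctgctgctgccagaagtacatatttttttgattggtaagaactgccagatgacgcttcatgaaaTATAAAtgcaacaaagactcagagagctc
EREG: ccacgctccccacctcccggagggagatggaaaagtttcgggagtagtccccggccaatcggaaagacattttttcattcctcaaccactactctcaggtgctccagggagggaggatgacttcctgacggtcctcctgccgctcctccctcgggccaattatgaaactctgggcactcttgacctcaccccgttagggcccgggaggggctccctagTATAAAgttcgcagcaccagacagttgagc
AREG: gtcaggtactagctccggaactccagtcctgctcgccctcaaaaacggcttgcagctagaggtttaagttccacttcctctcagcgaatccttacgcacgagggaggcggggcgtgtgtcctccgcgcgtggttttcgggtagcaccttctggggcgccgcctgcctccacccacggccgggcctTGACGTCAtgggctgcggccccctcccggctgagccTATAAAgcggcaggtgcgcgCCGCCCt

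TATAAA began at -29 in EPGN, -32 in EREG and -29 in AREG, counted back from the RefSeq start. The letters also occurred 2 times in the second of the EGFR windows. No other member window held them, that of BTC included. They occur in 11.5% of all 35116 windows of 300 bases. The full CRE letters were found at -65 in AREG and in no other member window, and 1.85% of all windows hold them. HBEGF held 5 matches to GGGCGG, the last 2 of which share 1 base, and 45% of all windows hold at least 1. These letters were not particular to HBEGF. The first TGFA window held 4 matches, the first EGFR window 3, and the ERRFI1, AREG and BTC windows 1 each. AP-1 letters, held by 4.95% of all windows, occurred 2 times in the second of the EGFR windows. ETS letters, held by 10.3%, occurred 2 times in the ERBB2 window. No other member window held either. GC content was 75.0% in the HBEGF window, 37.7% in EPGN, 57.7% in EREG and 66.3% in AREG. A match is a description of the letters and no evidence of binding, and more distant sequence was not searched.

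ERRFI1, the feedback inhibitor, was lower too, by slightly less than the receptor it restrains. ERRFI1 (ENSG00000116285, chr1:8004404-8026308, minus strand) was at 139.0 TPM with XPR1 siRNA and 295.7 TPM with control siRNA, 2.13-fold lower (2.03 to 2.23). The ratio of EGFR to ERRFI1 transcript was 0.801 with XPR1 siRNA and 0.891 with control siRNA. An antisense RNA, AL034417.4, shares 155 of the 4186 exonic bases of ERRFI1 and was below 1 TPM in both libraries.

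Of the 6 further ERBB family genes, 3 reached a mean of 1 TPM, all at low levels and within 2-fold, and ERBB4, NRG3 and NRG4 did not. NRG1, a neuregulin that binds ERBB3 and ERBB4, was at 7.77 TPM with XPR1 siRNA and 5.78 TPM with control siRNA, a ratio of 1.34 (1.15 to 1.58). NRG2 was at 6.27 TPM with XPR1 siRNA and 5.40 TPM with control siRNA, and its interval of 0.882 to 1.53 includes 1. EGF itself was at 1.36 TPM with XPR1 siRNA and 0.902 TPM with control siRNA, from 34 reads with XPR1 siRNA and 23 with control siRNA, with an interval of 0.879 to 2.73. NRG3 had no read, and NRG4 had 3 reads with XPR1 siRNA and 1 with control siRNA.

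Of 11 genes for release of the ligands from the membrane, 9 were expressed. With XPR1 siRNA 1 of them was higher by at least 2-fold and 0 were lower by as much, beside 10.4% and 8.57% of all expressed genes, so the count does not set the list apart. The median difference was 0.46. CD9, a tetraspanin that associates with the HB-EGF precursor, was at 84.6 TPM with XPR1 siRNA and 41.6 TPM with control siRNA, a ratio of 2.03 (1.86 to 2.23). ADAM10, in mouse cells the sheddase of EGF and betacellulin, fell just short of the threshold at 138.3 TPM with XPR1 siRNA and 69.3 TPM with control siRNA. ADAM17, in mouse cells the main sheddase of TGF-alpha, amphiregulin and HB-EGF, was at 40.0 TPM with XPR1 siRNA and 59.8 TPM with control siRNA. RHBDF2, an iRhom protein that brings ADAM17 to the surface, was at 22.6 TPM with XPR1 siRNA and 35.1 TPM with control siRNA. The last 3 were chosen after their values were seen.

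Of 19 receptor adaptor and effector genes, 17 were expressed, and 1 was at least 2-fold higher and 1 lower, with a median of -0.04. The shares at least 2-fold higher and lower were 10.4% and 8.57% over all expressed genes, and 8.75% and 4.57% over the protein-coding ones. Counts of 1 gene each way do not set the list apart from these. Both genes encode regulatory subunits of PI3K. PIK3R3 was at 15.6 TPM with XPR1 siRNA and 4.39 TPM with control siRNA, a ratio of 3.55 (2.94 to 4.34). PIK3R1 was at 16.1 TPM with XPR1 siRNA and 40.4 TPM with control siRNA, a ratio of 0.399 (0.365 to 0.435). Of 13 genes of the cascade from RAS to ERK, all were expressed, 12 lay within 2-fold and 1 was higher, with a median of -0.01. This count, too, does not set the list apart from the share of 10.4% over all expressed genes or 8.75% over the protein-coding ones. MAPK3, which encodes ERK1, was at 83.4 TPM with XPR1 siRNA and 39.4 TPM with control siRNA, a ratio of 2.12 (1.92 to 2.34).

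None of the 19 expressed genes, of 20 listed, that restrain receptors or carry them to lysosomes was 2-fold apart. Of all expressed genes, 8.57% were at least 2-fold lower and 10.4% at least 2-fold higher. The differences of the 19 listed genes ran from -0.83 to 0.64, with a median of -0.20. Among them were CBL, the ubiquitin ligase of active EGFR, at 36.2 TPM with XPR1 siRNA and 50.0 TPM with control siRNA, and TNK2, a kinase that binds EGFR, at 30.6 TPM with XPR1 siRNA and 20.0 TPM with control siRNA. Both were chosen after their values were seen.

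Among 16 genes that report ERK output, all expressed, 8 were at least 2-fold lower with XPR1 siRNA, beside 8.57% of all expressed genes, and 8 were within 2-fold. The median difference was -1.06. All 16 had a lower value, as 45.6% of all expressed genes did. The counting interval excluded 1 for 13 of the 16, beside 56.9% of all and 71.5% of protein-coding genes, and it included 1 for DUSP4, SPRY1 and SPRY2, named after their values were seen. DUSP5, a nuclear ERK phosphatase, was at 155.6 TPM with XPR1 siRNA and 488.9 TPM with control siRNA. DUSP6, its cytoplasmic counterpart, was at 40.5 TPM with XPR1 siRNA and 127.3 TPM with control siRNA. PHLDA1 and EGR1 were farthest apart, with log2(TPM + 1) differences of -2.51 and -2.05. The smallest difference of the list was -0.11. Many of these genes answer to other inputs as well, and the list was drawn up with earlier results of these libraries known, so its direction is not independent evidence.

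**Figure D5:**
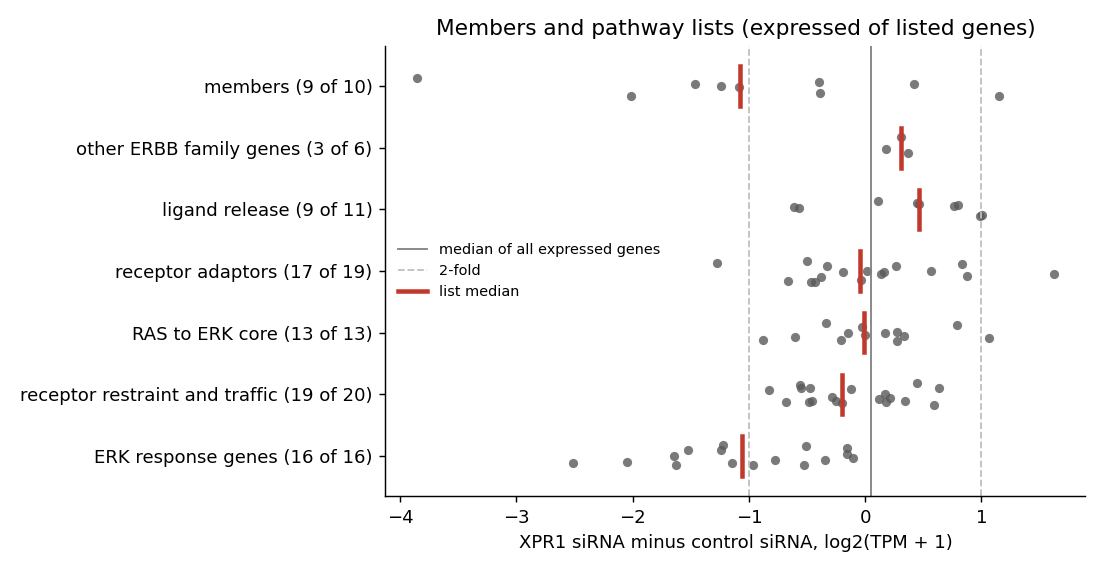
Difference of log2(TPM + 1), XPR1 siRNA minus control siRNA, for each expressed gene of the members and of 6 pathway lists, with the list median in red, the median of all expressed genes as a grey line and 2-fold as dashed lines. The members and the ERK response genes have medians of -1.08 and -1.06, and the medians of the other lists lie between -0.20 and 0.46. Members and lists were drawn up with earlier results of these libraries known.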

How the data were processed

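The authors deposited TPM values for 58884 Ensembl genes in 1 table with 1 column per library. Per the submitters' processing notes, Trimmomatic 0.38, featureCounts 2.0.0, FastQC, MultiQC and the GRCh38 build were used; the aligner and annotation release were not given in the labels used. Per the labels' protocols, RNA came from RNeasy Plus Kits and libraries from TruSeq RNA kit v2. Symbols came from a gene identifier table, and coordinates and exon lengths from GENCODE 29 (GRCh38).

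The plan named a log2 difference with 1 added, which was used, with a floor of 1 mean TPM and 2-fold as the call. TPM times exonic bases fell on steps of 246.3 (XPR1 siRNA) and 237.0 (control siRNA). Dividing by the step gave reads, whole within 0.01 for 92.5% and 92.4% of low genes (1 to 10 reads) but for 55.5% of protein-coding genes in both. A count of 0 allows up to 3 reads. No molecular identifiers were used, so reads may repeat molecules. Python 3.11.15 with scipy 1.17.1 was used. The method was tested on simulated reads that were made and recovered with the same exon lengths, so that test does not cover the authors' unstated lengths.

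The members and lists were chosen with earlier results of these data known. Named genes are all members, the other ERBB genes, the 4 farthest past 2-fold per list and direction, genes within 500 kb of the chromosome 4 ligands and genes that overlap a member; others are marked. Of the ERK response genes past 2-fold, the 4 farthest are named. Some listed items are not reported here.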

Additional observations from a re-analysis of the deposited data

How the results depend on the processing

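Rescaling the XPR1-siRNA library by the median of ratios or by the upper quartile shifted its values by -0.056 and -0.046 on the log2 scale, and mitochondrial genes were left out in a further setting. Under these and pseudocounts of 0.1 and 5, all 50 member values recomputed kept their sign, and 3 crossed 2-fold. With a pseudocount of 5, ERBB2 stood at 0.963 and EPGN at -0.576, which left 0 members at least 2-fold higher and 4 lower, and the members' median was -0.58. With a pseudocount of 0.1, ERBB3 stood at 1.008. With a floor of 0.1 mean TPM or none, ERBB3 entered and the median was -0.74. With a floor of 5, EPGN and BTC dropped out and 4 members were lower. The ratio of summed receptor TPM was 0.514 as deposited, 0.495 by the median of ratios and 0.498 by the upper quartile, and that of the ligands ran from 0.293 to 0.305.

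Over all genes, 1398 were at least 2-fold lower and 1699 higher. A pseudocount of 5 gave 530 lower and 577 higher, a floor of 5 gave 634 and 855, and protein-coding genes alone gave 535 and 1023. Calls whose counting interval excluded 1, a rule added after the data were seen, numbered 840 and 1205, and all 6 member calls met it. No paired analysis was possible because there is only 1 library per group, and leaving a library out would leave no comparison. Depth limits ERBB3, BTC and EPGN, which have 4 to 25 reads per library.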
